A study of Mus musculus with 8 samples.

Results

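The genes described here encode the junctions that hold endothelial cells together and the proteins that set how tight those junctions are. They are 36 genes chosen by name out of 31610 genes counted in RNA from lung endothelial cells. The rule uses no measured value, but the list was chosen with earlier results of these data known. The donors were C57BL/6J mice given an adeno-associated virus (AAV), a vector that carries a gene into tissue, and their lung endothelial cells were isolated by flow cytometry. The control AAV group and the nANGPTL4 AAV group had 4 libraries each, which the submitters describe as independent biological replicates. ANGPTL4 is a secreted protein that inhibits lipoprotein lipase, and nANGPTL4 is its N-terminal fragment. Both groups carried a vector, so the comparison is between 2 vector cargoes, with no untreated mice. The age and sex of the mice, the serotype, promoter and dose of the vector, and the time from vector to sorting are not given in the sources used here. Libraries titled NT Treated were placed in the nANGPTL4 AAV group by their treatment field.

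Endothelial cells meet at adherens junctions, where the cadherin VE-cadherin (Cdh5) binds its partner on the next cell and is tied to actin through catenins, and at tight junctions, where claudins seal the gap and zonula occludens scaffolds hold them in place. The small GTPase RAP1, the cerebral cavernous malformation (CCM) proteins at the junction and the sphingosine-1-phosphate receptor S1pr1 all act to keep these contacts closed. In the lung this barrier keeps plasma out of the air space, and it opens for fluid or leukocytes when junction proteins are phosphorylated, internalised or cut.

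Library totals ranged from 83183122 to 114337333 counts. Endothelial markers dominated, with 16 pan-endothelial genes (4 of them, Cdh5, Pecam1, Cldn5 and Esam, also junction genes) summing to 25002 to 25832 CPM (counts scaled to a common library size, the usual unit for one gene's level) in the control AAV libraries and 23844 to 24766 CPM in the nANGPTL4 AAV libraries. The groups did not overlap in this sum (exact two-sided permutation p = 0.0286, the smallest that 70 arrangements allow), and with scaling by library total alone its log2 ratio went from -0.05 to -0.01 (exact permutation p = 0.629). Without nANGPTL4 AAV library 4 the log2 ratio was -0.04 (exact permutation p = 0.0571, over fewer arrangements). The groups still did not overlap then, at 25002 to 25832 CPM in control AAV and 24671 to 24766 CPM in nANGPTL4 AAV. Of the 16 genes 14 had negative and 2 positive log2 fold changes, where 47.8% of all tested genes and 62.5% of those averaging above 3 on the log2 CPM scale had negative values. Among the 16, 1 was called lower by the edgeR test used below (adjusted p = 0.0369), where 17 of all 18874 tested genes were. In RNA from a sorted pool, fewer cells of one type and less RNA per cell cannot be told apart.

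Of the 36 genes, 35 had enough counts to be tested and 0 were called by the edgeR quasi-likelihood test at an adjusted p under 0.05 over all 18874 genes tested, where 0.138% of all genes were called. The median standard error (SE) of their log2 fold changes was 0.06. The gene nearest the threshold was Jam2, which encodes junctional adhesion molecule B, with an adjusted p of 0.0581. At an unadjusted p under 0.05, 7 of the 35 genes (20%) had lower values in nANGPTL4 AAV and 0 had higher values, beside 10.3% of all tested genes lower and 7.35% higher. These 7 were Jam2, Krit1, Cdh13, Tjp1, S1pr1, Ctnnd1 and Rap1a. Without nANGPTL4 AAV library 2 the count of 7 became 4, namely Jam2, Krit1, Cdh13 and Tjp1. Tjp1 dropped out without nANGPTL4 AAV library 1, and S1pr1, Ctnnd1 and Rap1a each dropped out when certain other libraries were left out. Only Jam2, Krit1 and Cdh13 stayed under 0.05 in every alternative fit. Rap1a dropped out under upper-quartile factors and with a stricter filter on low counts. Under library totals alone both Rap1a and Ctnnd1 dropped out.

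In the main fit, well-expressed genes as a whole were lower more often than all genes. All 7 genes were among the 29 junction genes averaging above 3 on the log2 CPM scale, which makes 24.1% of those 29. Of all 9241 genes at that level 18.2% were lower and 4.25% higher at the same unadjusted threshold. In 4 genes, Jam2, Tjp1, Rap1a and Krit1, every nANGPTL4 AAV library lay below every control AAV library in CPM scaled by TMM, the scaling of the main fit. That is 11.4% of the 35 against 6.99% of all tested genes and 13.8% of the 29 against 12.6% of all genes at that level. With that scaling no junction gene had the opposite separation, which 3.89% of all tested genes and 205 of the 9241 genes at that level showed. The TMM factors were 0.9690 to 0.9942 in control AAV libraries and 1.0080 to 1.0231 in nANGPTL4 AAV libraries. Under library totals alone only Jam2 of the 4 kept its separation, and the groups of Tjp1, Rap1a and Krit1 overlapped. Afdn then lay higher in every nANGPTL4 AAV library than in every control AAV library. The median log2 fold change (nANGPTL4 AAV minus control AAV) was -0.05 over the 35 junction genes, 0.01 over all tested genes and -0.03 over all genes averaging above 3 on the log2 CPM scale. These medians depended on the scaling. Under upper-quartile factors they were -0.0064, 0.0488 and 0.0058, and under library totals alone -0.0028, 0.0522 and 0.0094. A negative value was found for 26 of the 35 (74.3%), against 47.8% of all tested genes. Among the 29 the share was 82.8%, against 62.5% of all genes at that level. The 26 became 19 under upper-quartile factors and 18 under library totals alone.

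**Figure D1:**
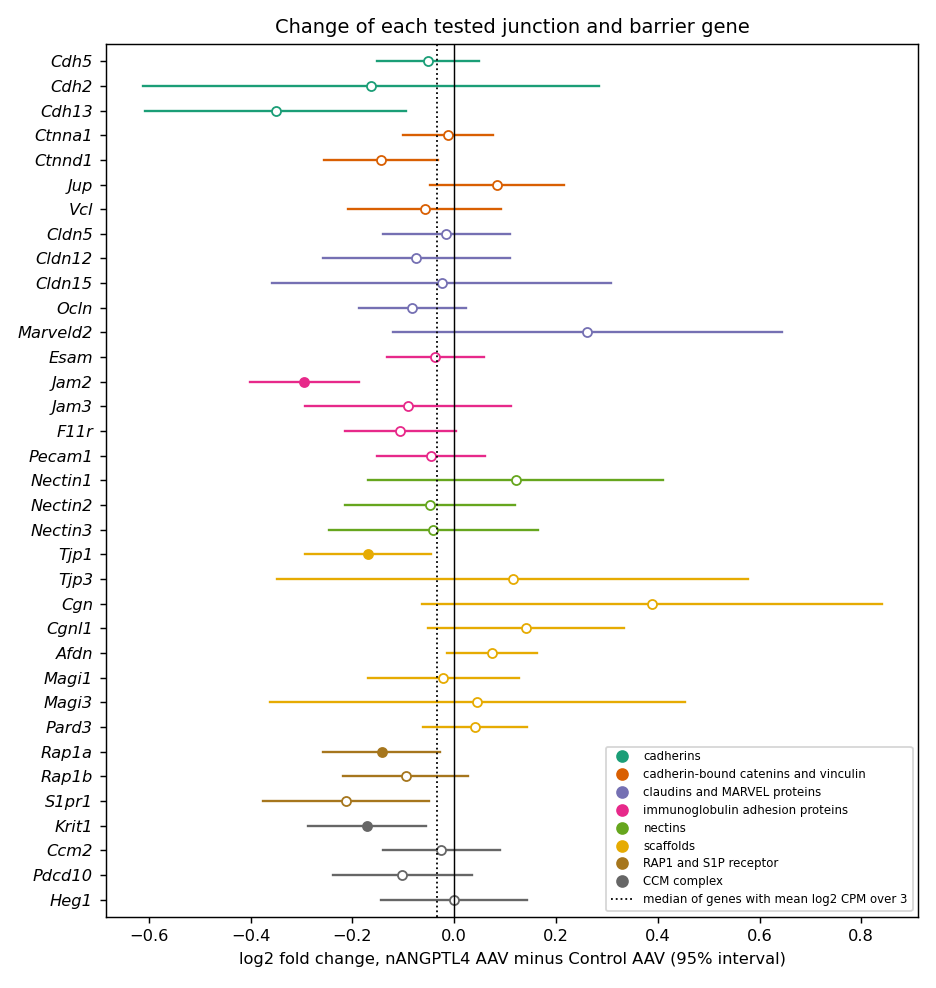
Log2 fold change of the 35 tested junction and barrier genes (x axis, nANGPTL4 AAV minus control AAV, edgeR with TMM scaling), with 95% intervals as bars, coloured by role. Filled points mark genes whose groups of 4 libraries did not overlap in TMM-scaled CPM. Most points lie near the dotted line at -0.03, the median of all genes averaging above 3 on the log2 CPM scale, and the 4 filled points (Jam2, Tjp1, Rap1a and Krit1) lie to its left.

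The junction genes spanned a wide range of abundance, given here as CPM per kb of exonic length, a level that can be compared between genes. Over the 8 libraries Cldn5, the main claudin of endothelium, stood at 2257 ± 114 CPM per kb (SD, n = 8), followed by S1pr1 at 674 ± 75.5, the adhesion molecule Esam at 541 ± 15.5, Pecam1 at 432 ± 16.6, plakoglobin (Jup) at 331 ± 21.2 and Cdh5 at 279 ± 10.1. Of the 36 genes, 10 were over 100 CPM per kb and 15 lay at or above the 90th percentile of tested genes. At the other end, 7 were under 1 CPM per kb, namely Cldn15, Nectin1, Marveld2, Cgn, Tjp3, Cdh2 and Cldn1. Some neighbours in the order did not differ beyond their spread, such as Jam2 at 30.1 ± 3.51 and occludin (Ocln) at 29.5 ± 1.49, or Cldn12 at 3.14 ± 0.274 and Jam3 at 3.10 ± 0.288 CPM per kb. The length is the union of all annotated exons, so a gene with many long gene models, such as Krit1 with 21853 exonic bases, reads low on this scale.

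Levels differed widely within families. Cdh5 was on average 3176 times Cdh2 (N-cadherin) per kb, with ratios from 2460 to 4355 over the libraries, and Cldn5 was 723 times Cldn12. The scaffold Tjp1 was 699 times Tjp3, and paracingulin (Cgnl1) was 18.1 times cingulin (Cgn). Among the junctional adhesion molecules F11r (JAM-A) was 45.1 times Jam3 (JAM-C), with Jam2 between them at 9.78 times Jam3. Of the nectins, Nectin3 was 3.11 times Nectin2, which in turn was 5.50 times Nectin1. Among the catenins Jup was 3.57 times beta-catenin (Ctnnb1) per kb. Of the exonic bases of Ctnnd1 (p120-catenin), 61.2% also belong to Gm28635 on the same strand, so reads could be split or dropped between them and the level of Ctnnd1 is uncertain.

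**Figure D2:**
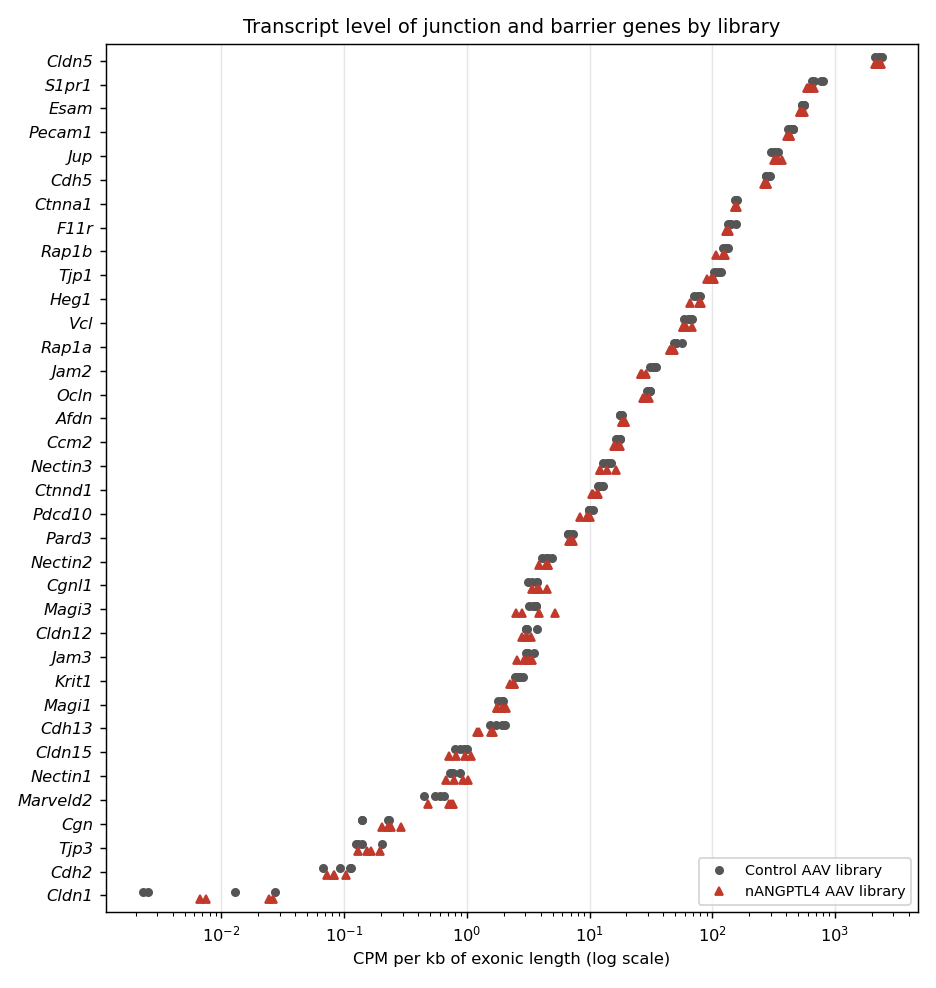
Level of each of the 36 genes in each library in CPM per kb of exonic length (x axis, log scale), with control AAV libraries as circles and nANGPTL4 AAV libraries as triangles, ordered by mean. Cldn5 leads at 2257 CPM per kb, Cldn1 is last at 0.0137, and the libraries of a gene are most spread out for Cldn1, which had 1 to 13 counts per library.

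RefSeq promoter sequences (GRCm38.p6, the assembly that mm10 denotes) were used for 25 of the 36 genes (Cdh2 and Ctnna1 were not examined). Cdh5, Cdh13, Pecam1, Esam, Jam2, Jam3, Nectin1, Rap1a and S1pr1 had no entry, so the shares below leave them out. The 250 bases before the start are shown for 3 of the 25: Cldn5, the most abundant of the genes, and Tjp1 and Krit1, the 2 genes with an entry whose groups did not overlap in TMM-scaled CPM. Capitals mark GGGCGG, the GC box bound by SP and KLF factors, and CCGGAAG or CAGGAAG, which hold the core bound by ETS factors, each searched on both strands. The Tjp1 entry starts inside the longer gene model of the annotation, and of 2 entries for Krit1 the one nearest the annotated start was used. The Cldn5 sequence is chr16:18776597-18776846 on the plus strand, that of Tjp1 is chr7:65371245-65371494 on the minus strand and that of Krit1 is chr5:3802931-3803180 on the plus strand.
Cldn5: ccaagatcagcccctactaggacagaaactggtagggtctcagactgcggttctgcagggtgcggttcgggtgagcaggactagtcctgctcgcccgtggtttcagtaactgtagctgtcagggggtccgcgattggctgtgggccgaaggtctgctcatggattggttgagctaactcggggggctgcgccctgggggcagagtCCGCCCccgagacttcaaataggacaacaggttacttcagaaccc
Tjp1: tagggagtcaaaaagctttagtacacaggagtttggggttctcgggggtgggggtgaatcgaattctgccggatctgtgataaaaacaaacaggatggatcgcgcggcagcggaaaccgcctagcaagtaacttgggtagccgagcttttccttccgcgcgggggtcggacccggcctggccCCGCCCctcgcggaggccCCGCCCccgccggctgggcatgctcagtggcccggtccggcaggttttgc
Krit1: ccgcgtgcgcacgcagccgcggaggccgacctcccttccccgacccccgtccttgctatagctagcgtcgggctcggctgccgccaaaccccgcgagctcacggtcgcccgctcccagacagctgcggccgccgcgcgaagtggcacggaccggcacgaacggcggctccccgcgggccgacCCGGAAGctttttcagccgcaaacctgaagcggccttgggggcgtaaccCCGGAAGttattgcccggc

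The Krit1 sequence held CCGGAAG 2 times and no GGGCGG, the Tjp1 sequence held GGGCGG 2 times and neither ETS string, and the Cldn5 sequence held GGGCGG 1 time. Over the 25 genes GGGCGG was found in 84% of sequences, against 32.7% of all 32851 windows in the table and 53.9% of the 15362 windows of tested genes. CCGGAAG was found in 16% of the 25, against 6.91% of all windows and 12% of those of tested genes, and CAGGAAG in 16%, against 10.8% and 10.4%. The sequences of the 25 genes had a median GC content of 63.2%, against 59.2% for windows of tested genes. The GC box was thus in 21 of the 25 sequences and each ETS string in 4, which describes letters in this window and not binding.

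The cadherins and their partners come first among the adherens junction genes. Positions of genes are given on mm10. Cdh5 (chr8:104101625-104144511, plus strand) was at 1154, 1225, 1155 and 1244 CPM in control AAV libraries 1 to 4 and at 1172, 1151, 1174 and 1113 CPM in nANGPTL4 AAV libraries 1 to 4. The groups overlapped, with a log2 fold change of -0.05 ± 0.05 (SE, at an adjusted p of 0.598) and a 95% interval from -0.15 to 0.05. Ctnna1, which encodes the alpha-catenin that links cadherins to actin, was as close, at 1004 ± 13.1 and 995 ± 21 CPM (SD, n = 4 each), with an interval from -0.10 to 0.08 and a value that turned positive (0.03) under upper-quartile factors and under library totals alone.

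Cdh13 (chr8:118283733-119324921, plus strand) encodes T-cadherin, a cadherin anchored by lipid that also binds adiponectin. Its level was 21.9, 19.5, 17.2 and 22.9 CPM in the control AAV libraries and 18.5, 14.1, 17.7 and 13.7 CPM in the nANGPTL4 AAV libraries. The log2 fold change of -0.35 ± 0.12 (SE, at an adjusted p of 0.159) was the most negative of the 35, but control AAV library 3 lay below nANGPTL4 AAV libraries 1 and 3. Ctnnd1 (chr2:84600071-84650765, minus strand) encodes p120-catenin, which shields VE-cadherin from internalisation, and was at 94.7, 91.9, 85.8 and 87.7 CPM against 77.1, 78.6, 86.2 and 84.2 CPM. Only nANGPTL4 AAV library 3 reached into the control range, and the log2 fold change was -0.14 ± 0.05 (SE, adjusted p = 0.180). Jup, the plakoglobin that can take the place of beta-catenin, was at 2070 ± 113 and 2193 ± 144 CPM, and vinculin (Vcl), which is recruited to junctions under tension, at 525 ± 35.2 and 504 ± 42.5 CPM. Neither passed the test (adjusted p = 0.509 and 0.706), and 25.5% of the exonic bases of Vcl overlap Ap3m1 on the other strand. Cdh2, at 61 to 91 counts per library, had a log2 fold change of -0.16 with an interval from -0.61 to 0.28, which shows little either way.

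Tight junction claudins showed no separation of the groups. Cldn5 (chr16:18776847-18778262, plus strand) stood at 3227, 3008, 3393 and 3223 CPM in control AAV libraries 1 to 4 and at 3380, 3289, 3068 and 2978 CPM in nANGPTL4 AAV libraries 1 to 4. Both the lowest and the second highest value were in nANGPTL4 AAV, the log2 fold change was -0.02 ± 0.06 (SE, adjusted p = 0.918, 0.02 under upper-quartile factors and 0.03 under library totals alone), and the 95% interval ran from -0.14 to 0.11. Occludin (Ocln), which together with tricellulin (Marveld2) belongs to the four-helix MARVEL proteins of tight junctions, was at 128 ± 4.19 and 121 ± 6.38 CPM with a log2 fold change of -0.08 (adjusted p = 0.399). Cldn12 was at 13.6 ± 1.40 and 12.9 ± 0.925 CPM and Cldn15 at 1.93 ± 0.178 and 1.90 ± 0.354 CPM, with log2 fold changes of -0.08 and -0.02. The value of Cldn15 was 0.01 under upper-quartile factors and 0.02 under library totals alone. Cldn1, a claudin of epithelia, had 1 to 13 counts per library and was the 1 gene of the 36 that was not tested.

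The immunoglobulin-type adhesion proteins held the gene with the smallest p. Jam2 (chr16:84774123-84825928, plus strand), whose product binds JAM-C on the facing cell and is found at endothelial contacts, was at 205, 211, 188 and 198 CPM in control AAV libraries 1 to 4 and at 162, 160, 160 and 173 CPM in nANGPTL4 AAV libraries 1 to 4. The highest nANGPTL4 AAV library lay below the lowest control AAV library. The log2 fold change was -0.29 ± 0.05 (SE, 95% interval from -0.40 to -0.19, adjusted p = 0.0581), and over all alternative fits it lay between -0.32 and -0.25, with adjusted p from 5.75e-05 to 0.203. Jam2 passed with DESeq2 (adjusted p = 5.75e-05) and with a robust edgeR fit (adjusted p = 0.0391), which called 0.313% of all tested genes. DESeq2 called 6.14% of the 15580 genes to which it gave an adjusted p, and Jam2 was the 1 junction gene of 35 it called.

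The other 4 adhesion proteins lay closer together. Pecam1, a homophilic adhesion protein that endothelial cells and leukocytes share, was at 2835, 2834, 2593 and 2673 CPM against 2692, 2539, 2677 and 2682 CPM, a log2 fold change of -0.05 (adjusted p = 0.660). Esam, an endothelial adhesion molecule, was at 1591, 1600, 1555 and 1540 CPM against 1535, 1491, 1603 and 1496 CPM, a log2 fold change of -0.04 (adjusted p = 0.700) that was 0.0022 under upper-quartile factors and 0.0058 under library totals alone. For both genes the highest and lowest libraries of the groups interleaved. F11r, which encodes JAM-A, was at 382 ± 22.0 and 355 ± 9.52 CPM with a log2 fold change of -0.11 (adjusted p = 0.298). Jam3, with 36.2% of its exonic bases shared with the antisense gene Gm48796, was at 10.2 ± 0.726 and 9.59 ± 1.09 CPM. The 3 nectins, which seed adherens junctions through the scaffold afadin (Afdn), had log2 fold changes of 0.12 for Nectin1, -0.05 for Nectin2 and -0.04 for Nectin3, the last 0.0017 under library totals alone. Their adjusted p-values were 0.679 or more.

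**Figure D3:**
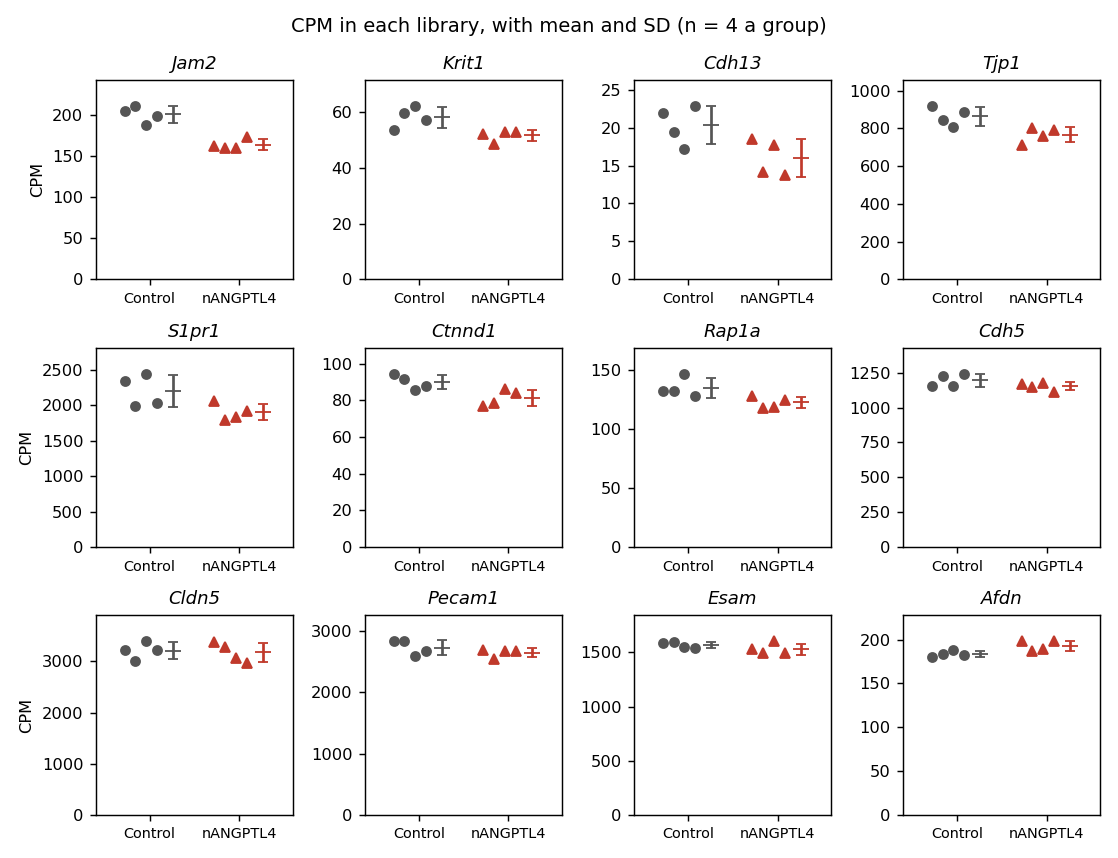
CPM of 12 junction genes in each library (y axis, from 0), with control AAV libraries as circles, nANGPTL4 AAV libraries as triangles and the mean ± SD of each group of 4 as a bar beside them. The top row and the first 3 panels of the second row hold the 7 genes lower at an unadjusted p under 0.05, of which Jam2 has the clearest gap (160 to 173 against 188 to 211 CPM), and the other 5 panels show Cdh5, Cldn5, Pecam1, Esam and Afdn, whose changes were small.

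Values of the scaffolds beneath the membrane lay on both sides of 0, and none passed the test. Tjp1 (chr7:65296165-65527781, minus strand) encodes zonula occludens 1, which ties claudins and junctional adhesion molecules to actin, and was at 920, 842, 806 and 885 CPM in control AAV libraries 1 to 4 and at 712, 802, 762 and 793 CPM in nANGPTL4 AAV libraries 1 to 4. The groups did not overlap in these TMM-scaled values, though only a few CPM lay between control AAV library 3 and nANGPTL4 AAV library 2. Under library totals alone the groups overlapped. The log2 fold change was -0.17 ± 0.06 (SE, adjusted p = 0.160). Afdn was at 180, 183, 188 and 182 CPM against 198, 187, 189 and 198 CPM, which gave a log2 fold change of 0.07 ± 0.04 (SE, at an adjusted p of 0.361). Its groups met at one point, with control AAV library 3 above nANGPTL4 AAV library 2, and did not overlap under library totals alone. Cgnl1, a cingulin-like junction scaffold, had a log2 fold change of 0.14, and the polarity protein Pard3 one of 0.04. For the MAGI scaffolds the values were -0.02 for Magi1, which was 0.02 under upper-quartile factors and under library totals alone, and 0.05 for Magi3. The value of Magi3 rested on nANGPTL4 AAV library 3, which had 44.4 CPM where the other 3 libraries of its group had 21.6 to 33.2, and without that library it was -0.17 (adjusted p = 0.517).

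Several genes that are best known from epithelial tight junctions were scarce and had positive values that did not pass the test. Cgn, a tight junction scaffold, was at 0.845, 0.841, 1.38 and 1.39 CPM in control AAV and at 1.23, 1.45, 1.38 and 1.74 CPM in nANGPTL4 AAV, a log2 fold change of 0.39 ± 0.20 (SE, at an adjusted p of 0.352). Control AAV libraries 1 and 2 were low and the other 6 lay between 1.23 and 1.74 CPM. Marveld2 was at 1.91 ± 0.299 and 2.29 ± 0.453 CPM with a log2 fold change of 0.26 (adjusted p = 0.468), and Tjp3, a zonula occludens protein of epithelia, at 0.554 ± 0.133 and 0.598 ± 0.105 CPM with one of 0.12 (adjusted p = 0.818). Epithelial junction markers, 12 genes such as Cdh1, Epcam and Cldn18, summed to 19.9, 27.4, 31.2 and 35.1 CPM in the control AAV libraries and 37.7, 34.9, 33.4 and 35.4 CPM in the nANGPTL4 AAV libraries (exact two-sided permutation p = 0.0857). Leaving out 1 library at a time gave exact permutation p-values from 0.0286 (without control AAV library 4) to 0.2 (without nANGPTL4 AAV library 1), and log2 ratios from 0.18 (without control AAV library 1) to 0.43. The difference lay mostly in Cldn18, at 12.6 ± 4.77 and 19.0 ± 1.47 CPM, and the other 11 genes summed to 12.5 to 17 CPM in control AAV and 15 to 17.2 CPM in nANGPTL4 AAV (exact two-sided permutation p = 0.743, a sum added after the data were seen). Of the 11 markers tested 7 had positive and 4 negative log2 fold changes, with Cdh1 at -0.04 and Epcam at 0.0021. The 17 lung epithelial markers summed to 352 to 516 and 494 to 607 CPM (exact two-sided permutation p = 0.0857, and 0.114 without Cldn18). Hopx made up much of that sum, at 214 to 270 CPM in control AAV and 260 to 292 CPM in nANGPTL4 AAV. Of these 17 markers 15 had positive and 2 negative log2 fold changes. Among them 1 was called higher by edgeR (adjusted p = 0.0369), where 9 of all 18874 tested genes were. In either list 0 of the markers were at 0 in all libraries. The part of this RNA in the levels of Cgn, Marveld2 and Tjp3 was not tested. Of the sequence of Cgn, 21.6% recurs in other genes, mostly in BC021767, so its count is less certain.

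Among the signalling proteins, RAP1 is switched on by exchange factors and strengthens cadherin contacts. Rap1a (chr3:105727267-105801336, minus strand) was at 132, 132, 147 and 128 CPM in control AAV libraries 1 to 4 and at 128, 118, 119 and 125 CPM in nANGPTL4 AAV libraries 1 to 4. The groups met at 128 CPM without overlap in these TMM-scaled values, with control AAV library 4 just above nANGPTL4 AAV library 1. Under library totals alone the groups overlapped. The log2 fold change was -0.14 ± 0.05 (SE, adjusted p = 0.190). Rap1b, which was 2.53 times as abundant per kb, was at 371 ± 12.6 and 347 ± 24.2 CPM with a log2 fold change of -0.10 (adjusted p = 0.407). Part of the sequence of Rap1a, 13.1%, recurs in other genes such as Gm9392.

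S1pr1 (chr3:115710433-115715072, minus strand) is the receptor through which sphingosine-1-phosphate in plasma tightens the endothelial barrier. It was at 2340, 1991, 2446 and 2037 CPM in control AAV libraries 1 to 4 and at 2052, 1794, 1840 and 1923 CPM in nANGPTL4 AAV libraries 1 to 4. Control AAV libraries 1 and 3 stood above the rest, while control AAV libraries 2 and 4 lay within the nANGPTL4 AAV range. The log2 fold change was -0.21 ± 0.07 (SE, adjusted p = 0.177).

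In the CCM complex the protein KRIT1 binds the transmembrane receptor HEG1 and RAP1 at junctions, and CCM2 joins it to PDCD10. Krit1 (chr5:3803184-3845564, plus strand) was at 53.6, 59.6, 62.3 and 57.2 CPM in control AAV libraries 1 to 4 and at 52.0, 48.7, 53.0 and 52.9 CPM in nANGPTL4 AAV libraries 1 to 4. The groups did not overlap in these TMM-scaled values, though control AAV library 1 lay within 1 CPM of nANGPTL4 AAV library 3. Under library totals alone the groups overlapped. The log2 fold change was -0.17 ± 0.05 (SE, adjusted p = 0.135). Its partners showed smaller values: -0.03 for Ccm2, which was 0.01 under upper-quartile factors and 0.02 under library totals alone, -0.10 for Pdcd10 and -0.0012 for Heg1. Heg1 was at 966 ± 41.8 and 966 ± 83.5 CPM, and its value turned positive under 7 of the 9 fits that kept all libraries, at 0.04 under library totals alone. Of the sequence of Pdcd10, 16.4% recurs in Gm14253.

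Ratios of related genes within a library do not depend on how libraries are scaled, and they were computed after the fold changes had been seen, as a description. The ratio of Jam2 to F11r per kb was 0.250, 0.226, 0.222 and 0.228 in control AAV and 0.194, 0.204, 0.197 and 0.217 in nANGPTL4 AAV, so the groups did not overlap. Those of Krit1 to Ccm2 (0.156 ± 0.0118 and 0.141 ± 0.00649), Ctnnd1 to Ctnna1, Cdh13 to Cdh5, S1pr1 to Cdh5 and Rap1a to Rap1b overlapped between the groups. The ratio of Cldn5 to Cdh5 was 8 ± 0.635 and 8.18 ± 0.396 (SD, n = 4 each). Of the 7 ratios plotted, Jam2 to F11r was the only one in which the groups separated. The ratio of Jam2 to Jam3, which was not plotted, overlapped, at 9.60 to 11.5 in control AAV and 7.83 to 11.2 in nANGPTL4 AAV.

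**Figure D4:**
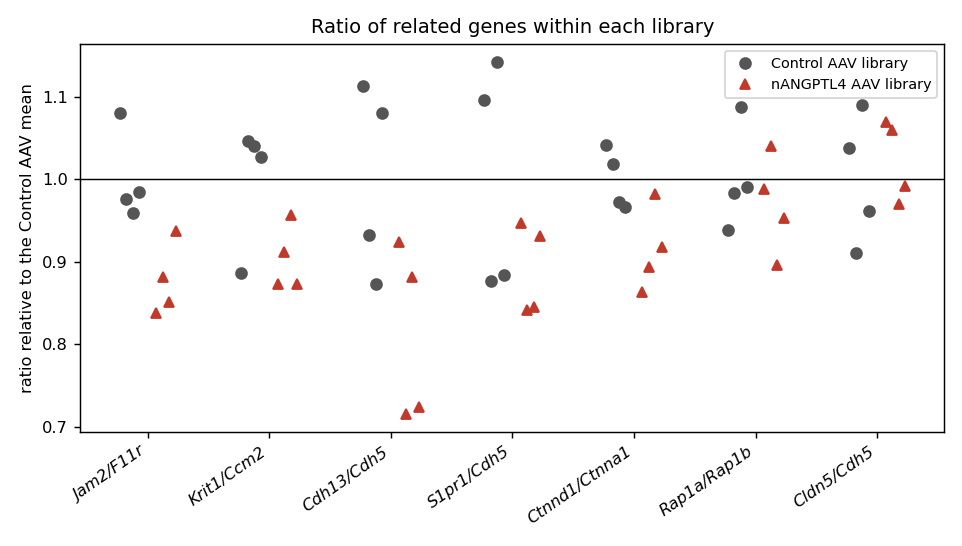
Ratio of 7 pairs of related junction genes within each library, per kb of exonic length, divided by the mean ratio of the control AAV libraries (y axis, no unit), with control AAV libraries as circles and nANGPTL4 AAV libraries as triangles. Only for Jam2/F11r do all 4 triangles lie below all 4 circles (0.194 to 0.217 against 0.222 to 0.250 before division), and for Cldn5/Cdh5 the marks are mixed.

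The nANGPTL4 AAV libraries were not alike in these genes. The median difference of the 35 genes from the control AAV mean was -0.11 on the log2 scale in nANGPTL4 AAV library 2 and -0.09 in library 4, but -0.03 in both library 1 and library 3. In the control AAV libraries it lay between -0.02 and 0.01. For all genes averaging above 3 on the log2 CPM scale the same medians were -0.04, -0.05, -0.04 and -0.02 in nANGPTL4 AAV libraries 2, 4, 1 and 3. The lymphocyte markers, of which 8 of 14 were under 0.1 CPM, were also highest in nANGPTL4 AAV library 2, at 6.71 CPM in sum against 3.30 to 3.61 in the other 3 libraries of the group and 2.46 to 2.89 in control AAV. That sum did not overlap between the groups (exact two-sided permutation p = 0.0286, the smallest possible), and all 6 lymphocyte markers tested had positive values, none of which passed with edgeR. In addition the pan-endothelial sum was lowest in nANGPTL4 AAV library 4. Whether these go together with the junction values was not tested.

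Beyond the 36 genes, 189 other genes of the same machinery were examined as a whole, of which 178 were tested. None was called by edgeR over all genes, and 32 (18%) were lower and 12 (6.74%) higher at an unadjusted p under 0.05. Those shares were 10.3% and 7.35% for all tested genes and 18.2% and 4.25% for well-expressed genes. Under upper-quartile factors or library totals alone the 32 became 17. The share of all genes under those scalings was not computed, so that fall cannot be set against one. DESeq2 called 13 of the 169 to which it gave an adjusted p (7.69%, against 6.14% of all genes). Their median log2 fold change was -0.03, and it was 0.01 under upper-quartile factors and 0.02 under library totals alone. The median over all tested genes also moved, from 0.0089 to 0.0488 and 0.0522 under those scalings.

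A list of 26 genes around RAP1 pooled exchange factors and effectors with proteins that switch RAP off, such as Rap1gap and Sipa1l1, and with RAP2 GTPases. In it 8 genes (30.8%) were lower and 1 (3.85%) higher at an unadjusted p under 0.05. Those shares were 10.3% and 7.35% for all tested genes and 18.2% and 4.25% for well-expressed genes. Rapgef3 encodes EPAC1, the exchange factor that turns on RAP1 in response to cyclic AMP, and was at 368, 431, 418 and 388 CPM in control AAV libraries 1 to 4 and at 300, 327, 353 and 296 CPM in nANGPTL4 AAV libraries 1 to 4. Every nANGPTL4 AAV library lay below every control AAV library, with a log2 fold change of -0.33 ± 0.07 (SE, at an adjusted p of 0.0691 with edgeR and 0.00197 with DESeq2). The family did not lie on one side of 0. Rapgef2 was at -0.16, Rapgef5 at -0.29, Rapgef1 at -0.12 and Rapgef6 at -0.07, while Rapgef4, which encodes EPAC2, the other exchange factor that responds to cyclic AMP, was at 0.20. Rapgef4 was at 32.2, 31.2, 33.5 and 36.1 CPM in control AAV and at 40.3, 36.4, 36.2 and 40.2 CPM in nANGPTL4 AAV, groups that did not overlap, and none of these 5 genes passed with edgeR (adjusted p from 0.106 to 0.446). The median of this list was -0.07.

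Of the other membrane proteins of junctions, 26 of 34 were tested, with 2 lower and 2 higher at an unadjusted p under 0.05 (7.69% each). Beside them stood 10.3% and 7.35% of all tested genes and 18.2% and 4.25% of well-expressed genes. Pcdh12, an endothelial protocadherin, was at 216 ± 25.9 and 171 ± 8.81 CPM with a log2 fold change of -0.33 (adjusted p = 0.0844). Ildr1, a protein of tricellular junctions in epithelia, was at 0.253 ± 0.0538 and 0.499 ± 0.0649 CPM with one of 0.97 (adjusted p = 0.0756), and the alveolar claudin Cldn18 had one of 0.60 (adjusted p = 0.192). Cldn18 is itself one of the epithelial markers above, and the part of epithelial RNA in the level of Ildr1 was not tested. Among 40 tested plaque and actin-linking proteins 8 (20%) were lower and 5 (12.5%) higher at an unadjusted p under 0.05. Those shares were 10.3% and 7.35% for all tested genes and 18.2% and 4.25% for well-expressed genes. The list as a whole split into 20 positive and 20 negative values. The 3 with the smallest p were zyxin (Zyx) at -0.21, Vasp at -0.19 and Ajuba at -0.26, all proteins of actin-rich adhesion sites, with adjusted p-values between 0.135 and 0.160. The 5 higher ones, named after their values were seen, were Camsap3 at 0.34, the polarity proteins Pard6a at 0.14 and Pard6b at 0.41, desmoplakin (Dsp) at 0.64 and Lmo7 at 0.12.

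In the list of kinases, phosphatases, receptors and ligands (such as Vegfa) around VE-cadherin, 6 of 21 (28.6%) were lower and 1 (4.76%) higher at an unadjusted p under 0.05. Those shares were 10.3% and 7.35% for all tested genes and 18.2% and 4.25% for well-expressed genes. The list had 16 negative and 5 positive values in all, where 47.8% of all tested genes and 62.5% of well-expressed genes had negative values. Ptprb, which encodes VE-PTP, a phosphatase that holds VE-cadherin and TIE2 in a dephosphorylated state, was at 4221 ± 225 and 3738 ± 114 CPM with a log2 fold change of -0.18 (adjusted p = 0.124), followed by the phosphatase Ptpn14 at -0.19 and the SRC family kinase Yes1 at -0.21. Of 19 genes of sphingosine-1-phosphate signalling 2 were lower and 2 higher at an unadjusted p under 0.05 (10.5% each). Beside them stood 10.3% and 7.35% of all tested genes and 18.2% and 4.25% of well-expressed genes. The list was led by Sgpl1, the lyase that degrades sphingosine-1-phosphate, at -0.30 (adjusted p = 0.0756), the G protein subunit Gnai3 at -0.23 and Apom, which carries the lipid in plasma and had only 0.382 and 0.672 CPM here, at 0.81.

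Genes that act with or below the CCM complex had 10 negative and 8 positive values in all. At an unadjusted p under 0.05, 0 of the 18 were higher, against 7.35% of all tested genes and 4.25% of well-expressed genes. Lower at that threshold were 2 (11.1%), against 10.3% of all tested genes and 18.2% of well-expressed genes. The 2 were Mapk7 (ERK5) at -0.20 (adjusted p = 0.130) and Nos3, the endothelial nitric oxide synthase, at -0.16 (adjusted p = 0.169), while the kinase Stk26, at 0.214 and 0.270 CPM, was at 0.35 on the log2 scale (adjusted p = 0.550). Klf2 and Klf4, given here for their place as flow-responsive targets that the CCM complex restrains, varied widely between libraries. Klf2 was at 4293, 1410, 2631 and 2897 CPM in control AAV libraries 1 to 4 and at 4835, 2298, 2267 and 3848 CPM in nANGPTL4 AAV libraries 1 to 4. Klf4 ran in a like order, at 735, 394, 523 and 551 CPM against 862, 379, 453 and 700 CPM. The spread within a group was so wide that log2 fold changes of 0.24 ± 0.32 and 0.12 ± 0.25 (SE) could not be told from 0, with 95% intervals from -0.46 to 0.94 and from -0.43 to 0.67.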

How the data were processed

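RNA of sorted lung endothelial cells was measured in 4 control AAV and 4 nANGPTL4 AAV libraries. The deposited values were raw read counts per Ensembl gene, made by the authors on mm10, the build named in the submitters' processing notes. The program that aligned or counted reads, and whether strand was used, are not given in the sources used here. Per the labels' protocols, RNA came from a kit for small samples and cDNA from a low-input kit. Symbols, positions and exon lengths came from GENCODE M21 for 31491 of 31610 identifiers, by identifier without version.

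Genes were kept by filterByExpr (minimum count 10), scaled by TMM and tested across all 18874 remaining genes with the edgeR 4.0.16 quasi-likelihood test in R 4.3.3, with group as the only term and Benjamini-Hochberg adjustment. Intervals of log2 fold changes are 95% intervals from that fit. CPM used TMM-scaled library sizes. Library totals of 83183122 to 114337333 counts gave a biological coefficient of variation of 11.3%, and replicates of a group differed by more than counting error, with a chi-square per degree of freedom of 21 to 60.8. The fit was tested on simulated data. Marker sums were compared by exact two-sided permutation over 70 arrangements, and over fewer where a library was left out.

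The genes and lists were chosen with earlier results of these data known. By rule, Cdh5, Pecam1, Cldn5, Esam, S1pr1, Jam2 and every junction gene with an unadjusted p under 0.05 were given in each library, and up to 3 genes by p were named from each other list, of which 1 is not reported here on its own. Afdn, Cgn, Klf2, Klf4, Rapgef3 and Rapgef4 were given in each library outside that rule, and Rapgef1, Rapgef6 and 5 plaque proteins were named outside it. Marker lists without a value in the report were summed in the same way: mesothelial markers were at 5.43 and 6.23 CPM on average in control AAV and nANGPTL4 AAV, fibroblast and mural markers at 109 and 119, myeloid markers at 37.8 and 45.1, erythroid and platelet markers at 76.3 and 89.1, and lymphatic markers at 1126 and 958. Alternatives were other scalings, filters and tools (DESeq2 1.42.0, limma-voom 3.58.1), a replicate block and leaving out each library.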

Additional observations from a re-analysis of the deposited data

Results flagged for a closer look

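In 90 groups of 4 libraries (the 36 genes and 9 marker lists in both groups), 6 held a library that stood apart from the other 3, where about 1 in 20 groups does so when nothing sets a library apart. Cldn12 was highest in control AAV library 1, at 15.7 CPM against 12.8 to 13.1 in the others, and without that library its log2 fold change was 0.0094. Jam2 was highest within its group in nANGPTL4 AAV library 4, at 173 CPM against 160 to 162, which is the library nearest to the control AAV range. Pecam1 was lowest in nANGPTL4 AAV library 2, at 2539 CPM against 2677 to 2692. Pdcd10 was highest in control AAV library 3, at 31.4 CPM against 28.9 to 29.3. The pan-endothelial sum was lowest in nANGPTL4 AAV library 4, at 23844 CPM against 24671 to 24766, and the lymphocyte sum was highest in nANGPTL4 AAV library 2, at 6.71 CPM against 3.30 to 3.61.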

How the results depend on the processing

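The replicate numbers did not pair the libraries: same-numbered libraries correlated in their deviations at 0.16, 0.14, -0.25 and -0.38. With the replicate block 1 gene was called higher and 5 lower over all genes, 1 junction gene (Cgn) was higher at an unadjusted p under 0.05, and Magi3 was at -0.01. Over all genes 9 were called higher and 17 lower, against 3 and 1 with upper-quartile factors or library totals alone, 1 and 0 with the stricter filter, 308 and 648 with DESeq2, 16 and 43 with the robust fit, and 1 to 2 and 0 to 1 when a library was left out. Of the junction genes 1, Jam2, was called with DESeq2 and with the robust fit and 0 in every other fit. The count lower at an unadjusted p under 0.05 ran from 4 to 7 when a library was left out, and the count higher, 0 as reported, from 0 to 1. It was 1 (Afdn) with upper-quartile factors, library totals alone and the stricter filter. The median of the junction genes was -0.0064 with upper-quartile factors, -0.0028 with library totals alone and -0.06 to -0.02 without a library. For the 178 other genes the median was 0.0144 and 0.0186 under those scalings, DESeq2 called 13, and 17 were lower at an unadjusted p under 0.05 under each of those scalings, 20 with the stricter filter and 20 to 29 without a library. Shares of all genes at an unadjusted p were computed for the main fit only. The log2 ratio of the epithelial junction sum ran from 0.18 to 0.43 without a library and was 0.05 without Cldn18 (chosen after seeing the data), and that of the pan-endothelial sum was -0.0087 with library totals alone and ran from -0.0597 to -0.0390 without a library.

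Signs that turned belonged to genes with log2 fold changes between -0.08 and 0.05. Under upper-quartile factors and under library totals alone the values were 0.0273 and 0.0309 for Ctnna1, 0.0248 and 0.0280 for Cldn5, 0.0127 and 0.0164 for Cldn15, 0.0022 and 0.0058 for Esam, 0.0176 and 0.0215 for Magi1, 0.0144 and 0.0180 for Ccm2, and 0.0398 and 0.0429 for Heg1, and Nectin3 was at 0.0017 with library totals alone. With the stricter filter they were 0.0122 for Ctnna1, 0.0093 for Cldn5, 0.0033 for Magi1 and 0.0240 for Heg1. Heg1 was also at 0.0031 with RLE scaling and with DESeq2, 0.0033 with no filter and 0.0024 with limma-voom, and Magi3 at -0.0133 with limma-voom and -0.0117 with the replicate block. Without a library the values ran from -0.0268 to 0.0074 for Ctnna1, -0.0362 to 0.0231 for Cldn5, -0.1163 to 0.0094 for Cldn12, -0.1221 to 0.0828 for Cldn15, -0.0791 to 0.0071 for Nectin2, -0.1336 to 0.0243 for Nectin3, -0.0767 to 0.0227 for Magi1, -0.1739 to 0.1943 for Magi3, -0.0543 to 0.0203 for Ccm2 and -0.0220 to 0.0700 for Heg1. The cause of these shifts was not tested. Counts of Cdh2, Tjp3, Cgn and Cldn1 were too few to show small changes.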
